A study of Mus musculus with 12 samples.

Results

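The control retina was compared with the control sclera of C57BL/6J mice, and each tissue was represented by 3 Agilent mouse miRNA microarrays. Of the 696 mouse miRNA names on the array, 420 were detected on at least 1 of these 6 control arrays and form the set described. All mice had worn a frosted diffuser over the right eye for 10 days, from P24 through P34, and the control tissue came from their left eyes, which had worn none. The control eyes were therefore fellow eyes of form-deprived eyes, aged 34 days, and not eyes of untreated animals. Each array was hybridized with RNA pooled from 3 eyes, and the retina pool and the sclera pool of the same number carry the same mouse identifier in the labels. The other 6 of the 12 arrays of the study were hybridized with retina and sclera of the deprived right eyes and are called myopic.

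MiRNAs are short RNAs that guide silencing complexes to messenger RNAs, mainly through the seed near their 5′ end, and many are expressed in few cell types. The retina is a neural tissue of photoreceptors, interneurons, ganglion cells and glia. The sclera is the fibrous coat of the eye, made by fibroblasts that lay down collagen, and it is crossed by vessels and joined by the extraocular muscles. Both were measured as whole tissue, so that fewer cells of a type and less RNA per cell cannot be told apart.

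The mature sequences of 315 of the 420 miRNAs were found in RefSeq (mouse build GRCm38.p6). The sequences below are those of miRNAs with the widest separation between the tissues and of relatives that share a seed but separated differently. They are written 5′ to 3′, with the seed (bases 2 to 8) in capitals. The first set had the higher signal in the retina and comprises the photoreceptor cluster and neuronal miRNAs, with miR-551b-3p, miR-7b-5p and miR-138-5p detected in the retina and on no sclera array.
miR-183-5p: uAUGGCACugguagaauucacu
miR-96-5p: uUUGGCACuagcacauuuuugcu
miR-182-5p: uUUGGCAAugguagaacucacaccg
miR-9-5p: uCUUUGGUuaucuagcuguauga
miR-129-2-3p: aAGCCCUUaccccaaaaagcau
miR-551b-3p: gCGACCCAuacuugguuucag
miR-7b-5p: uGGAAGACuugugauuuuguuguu
miR-138-5p: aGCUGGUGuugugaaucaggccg
The next set had the higher signal in the sclera and holds the fibroblast miRNAs miR-199a and miR-214, the leukocyte miRNA miR-223, the muscle miRNA miR-133b and the epithelial miR-200a.
miR-199a-5p: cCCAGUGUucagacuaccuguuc
miR-199a-3p: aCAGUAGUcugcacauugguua
miR-214-3p: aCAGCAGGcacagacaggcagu
miR-223-3p: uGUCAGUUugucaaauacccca
miR-133b-3p: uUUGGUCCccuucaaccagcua
miR-200a-3p: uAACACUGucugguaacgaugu
The last set shows relatives with the same seed, which are compared further on.
miR-132-3p: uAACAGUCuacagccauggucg
miR-212-3p: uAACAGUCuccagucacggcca
miR-29c-3p: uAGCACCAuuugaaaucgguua
miR-29a-3p: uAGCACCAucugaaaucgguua
miR-130b-3p: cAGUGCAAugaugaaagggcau
miR-130a-3p: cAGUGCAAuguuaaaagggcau
miR-148b-3p: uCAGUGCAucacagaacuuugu
miR-152-3p: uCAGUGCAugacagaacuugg
The positions of these precursors on the genome are given where the miRNA is described, from the array annotation (mouse build mm9).

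The control retina arrays detected 353 to 372 miRNAs and the control sclera arrays 274 to 317. Control sclera array 3 was the dimmest, with a 75th percentile signal of 276 over the 246 miRNAs detected on all 12 arrays, against 674 to 1122 on the other control arrays. Each of the 3 slides carried 1 array of each of the 4 groups, and a group always lay at the same position, which therefore cannot be told apart from the group. Signals were quantile normalized and are given on the log2 scale, on which miRNAs of equal rank receive equal values and an undetected miRNA stands at -1. Differences are retina minus sclera with the standard error (SE), and p-values are from limma, with the Benjamini-Hochberg adjustment across the 443 miRNAs detected on any of the 12 arrays. A miRNA is called when the adjusted p-value was under 0.05 and the fold change at least 2.

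Of the 443 miRNAs tested, 224 were called (50.6%), with a higher signal in the retina for 122 (27.5%) and in the sclera for 102 (23.0%). The difference ran in the same direction in all 3 pairs of pools, and so on all 3 slides, for 200 of the called miRNAs. For 199 of them the 3 retina values did not overlap the 3 sclera values, and the same was true of 261 of the 443 miRNAs tested (58.9%). A part of the calls rests on absence of signal: of the 249 miRNAs detected on all 6 control arrays, 125 were called (50.2%), 44 toward the retina (17.7%) and 81 toward the sclera (32.5%). With the arrays scaled to their 75th percentile in place of quantile normalization, there were 242 calls (54.6%), 160 toward the retina (36.1%) and 82 toward the sclera (18.5%). Without normalization between arrays there were 268 (60.5%), of which 224 (50.6%) pointed to the retina and 44 (9.93%) to the sclera. Under these scalings the median difference of the 249 miRNAs moved from -0.23 to 0.14 and 1.18, and 21 of the 81 sclera calls but none of the 44 retina calls among them changed direction without normalization.

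**Figure D1:**
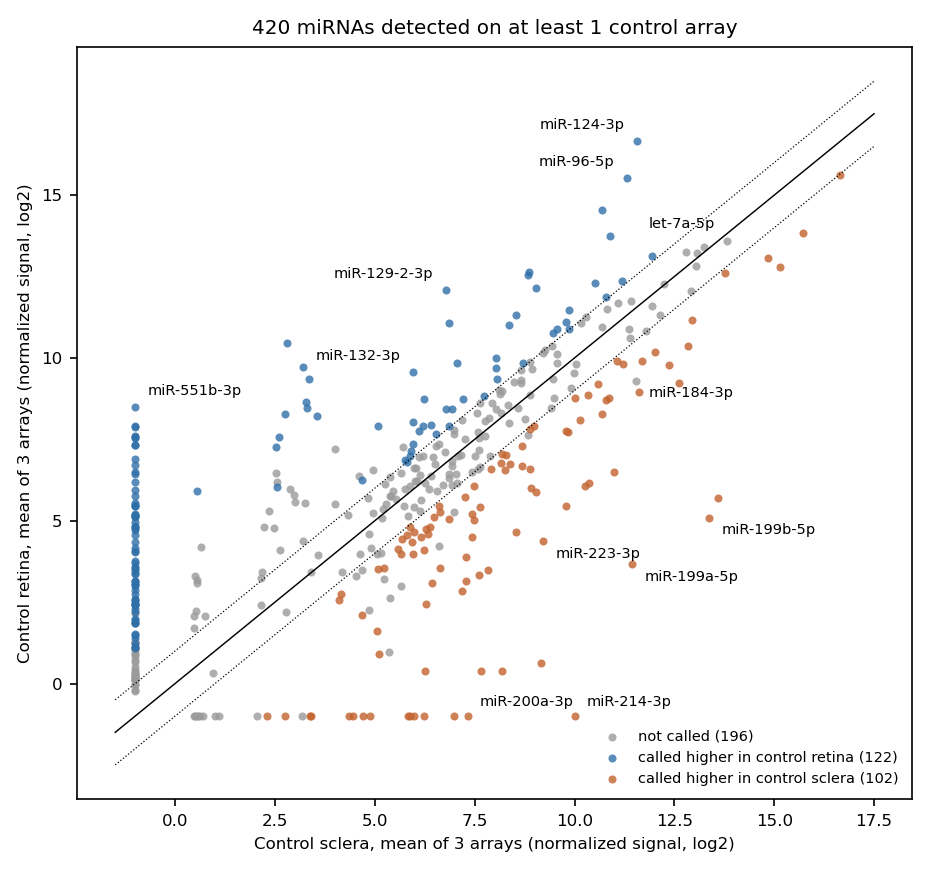
Mean normalized log2 signal of 420 miRNAs in the control sclera (x axis) and the control retina (y axis), each the mean of 3 arrays. Blue points are the 122 miRNAs called higher in the retina and orange points the 102 called higher in the sclera. The solid line marks equal signal, the dotted lines a fold change of 2, and the points at -1 were not detected on any array of that tissue.

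All 4 detected members of the photoreceptor and sensory cluster were called higher in the retina, against 27.5% of all miRNAs tested. MiR-183, miR-96 and miR-182 are made from a single transcript in photoreceptors and other sensory cells, and their precursors lie on chromosome 6 between 30115933 and 30119733. The signal of miR-96-5p was 15.43, 15.43 and 15.72 on retina arrays 1, 2 and 3 and 12.32, 12.36 and 9.24 on sclera arrays 1, 2 and 3. The retina values were higher without overlap, and sclera array 3 was the lowest. The difference was 4.22 ± 0.73 (SE), or 18.6-fold (adjusted p = 0.00064). MiR-183-5p differed by 3.87 ± 0.52 and miR-182-5p by 3.76 ± 0.46 (adjusted p = 0.00013 and 6.1e-05). The other arm of miR-183 was detected on all retina arrays and on sclera arrays 1 and 2, with 5.40 and 5.50, against 8.30 to 8.62 in the retina.

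The neuronal miRNAs were also higher in the retina: of the 19 detected members of the neuronal list, 13 were called toward the retina, 1 toward the sclera and 5 not at all, where 27.5% of all miRNAs tested were called toward the retina. Their median difference was 3.73, against 0.30 over all miRNAs tested. For the 11 members detected on all 6 control arrays the median was 2.53, against -0.23 over the 249 miRNAs so detected. The other members were undetected on 1 or more arrays, so that their differences and calls rest in part on the value of -1. MiR-124-3p, an abundant miRNA of neurons, reached the top of the normalized scale on every retina array, 16.65, against 12.54, 12.54 and 9.60 on the sclera arrays. The difference was 5.09 ± 0.69, or 34-fold (adjusted p = 0.00014). MiR-129-2-3p, found in brain and retina, gave 12.11, 12.15 and 11.99 in the retina and 7.20, 6.80 and 6.34 in the sclera, which is 39.5-fold (5.30 ± 0.40, adjusted p = 2.0e-06). Both arms of miR-9, which acts in neural progenitors and neurons, were called, with 4.23 ± 0.32 for miR-9-5p and 3.73 ± 0.21 for miR-9-3p. MiR-128-3p, a brain-enriched miRNA, was higher by 2.78 ± 0.14 and miR-218-5p by 2.53 ± 0.31. MiR-137-3p and miR-138-5p, both enriched in neurons, were detected on every retina array and on no sclera array. MiR-124-5p, miR-129-5p and miR-153-3p were detected on all retina arrays and on sclera arrays 1 and 2 but not on array 3. Of these, miR-124-5p was the least stable call (adjusted p = 0.032), lost without any retina array or without sclera array 3 (adjusted p = 0.059 to 0.099) and with the pool number as a block (adjusted p = 0.051).

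Retina markers were not absent from the sclera arrays. The 23 detected members of the sensory and neuronal lists were taken as these markers. On sclera arrays 1, 2 and 3, 19, 19 and 14 of them were detected. Their summed normalized signal there was 14.00, 14.03 and 12.05 on the log2 scale, against 17.55 to 17.62 on the retina arrays. They include miRNAs not higher in the retina by the calls. MiR-329-3p was called toward the sclera, and miR-212-3p, miR-149-5p, miR-485-5p, miR-485-3p and miR-135a-5p were not called. MiR-137-3p and miR-138-5p, which are among these markers, were not detected on any sclera array. The part of this summed signal in the differences was not tested.

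The neuronal list also held miRNAs that did not follow this direction. MiR-329-3p, a miRNA of the imprinted region on chromosome 12, was higher in the sclera, with 8.08, 8.30 and 8.51 against 6.78, 7.22 and 7.05 in the retina (-1.28 ± 0.18, adjusted p = 0.00014), although the difference was -0.011 without normalization between arrays. MiR-149-5p (0.30 ± 0.19) and miR-485-5p (-0.25 ± 0.38) were not called, and the values of the tissues overlapped.

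The miR-132 and miR-212 precursors lie side by side on chromosome 11, between 74986953 and 74987246, and are known as activity-regulated miRNAs of neurons. The mature miRNAs share the seed and 17 of 22 positions. MiR-132-3p was 9.78, 9.54 and 9.35 in the retina and 6.05, 5.95 and 5.87 in the sclera, a 12.1-fold difference (3.60 ± 0.18, adjusted p = 1.1e-07). MiR-212-3p was 7.95, 8.24 and 8.16 in the retina and 8.46, 8.57 and 9.22 in the sclera (-0.63 ± 0.19), so that the sclera values were the higher ones without overlap, although the fold change was under 2. The direction of miR-212-3p turned without normalization between arrays (0.58).

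All 4 members of the miR-181 family, which is abundant in inner retinal neurons, were called higher in the retina, against 27.5% of all miRNAs tested. The differences were 3.13 ± 0.10 for miR-181a-5p, 2.79 ± 0.11 for miR-181b-5p, 1.95 ± 0.11 for miR-181c-5p and 1.04 ± 0.12 for miR-181d-5p. The values of the 3 retina arrays were 12.27, 12.11 and 12.11 for miR-181a-5p, against 9.06, 9.01 and 9.01 in the sclera, without overlap. MiR-181d-5p fell just under a fold change of 2 without retina array 2 (0.99) or without sclera array 2 (0.99). MiR-181b-5p shares 20 and miR-181d-5p shares 19 of 23 positions with miR-181a-5p, and how far the probes separate such close relatives was not tested. MiR-210-3p, a miRNA induced by hypoxia, was higher in the retina by 2.66 ± 0.12, although it belongs to none of the lists.

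Detection on all 3 retina arrays and on no sclera array was found for 48 miRNAs. All of these were called, which the fixed value of -1 in the sclera sets in advance, so that the calls add nothing to the detection. Undetected values have no measured size, and the sclera was therefore placed at the lowest signal detected on each of its arrays. On this basis the fold difference was at least 1.13 to at least 21.3 for 34 of them, and no bound above 1 could be given for the other 14, the dimmest. The highest signal was that of miR-551b-3p, with 8.32, 8.60 and 8.54 on the retina arrays (at least 21.3-fold). It was followed by miR-7b-5p, which is expressed in neurons and neuroendocrine cells (at least 15.9-fold), by miR-3099-3p (at least 13.9-fold), by miR-375-3p, a miRNA of neuroendocrine cells (at least 13.1-fold), and by miR-384-5p (at least 12.7-fold). For the neuronal miR-138-5p and miR-137-3p the bounds were at least 9.81-fold and at least 6.95-fold. MiR-3099-3p varied most among these, from 6.86 to 9.30, whereas miR-375-3p stayed between 7.56 and 7.63. MiR-7a-5p, which shares 22 of 23 positions with miR-7b-5p, was detected on sclera arrays 1 and 2 and was also called higher in the retina (6.52 ± 1.39, adjusted p = 0.0026), at 9.65 to 9.76 in the retina. The size of its difference rests in part on the value of -1 on sclera array 3.

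**Figure D2:**
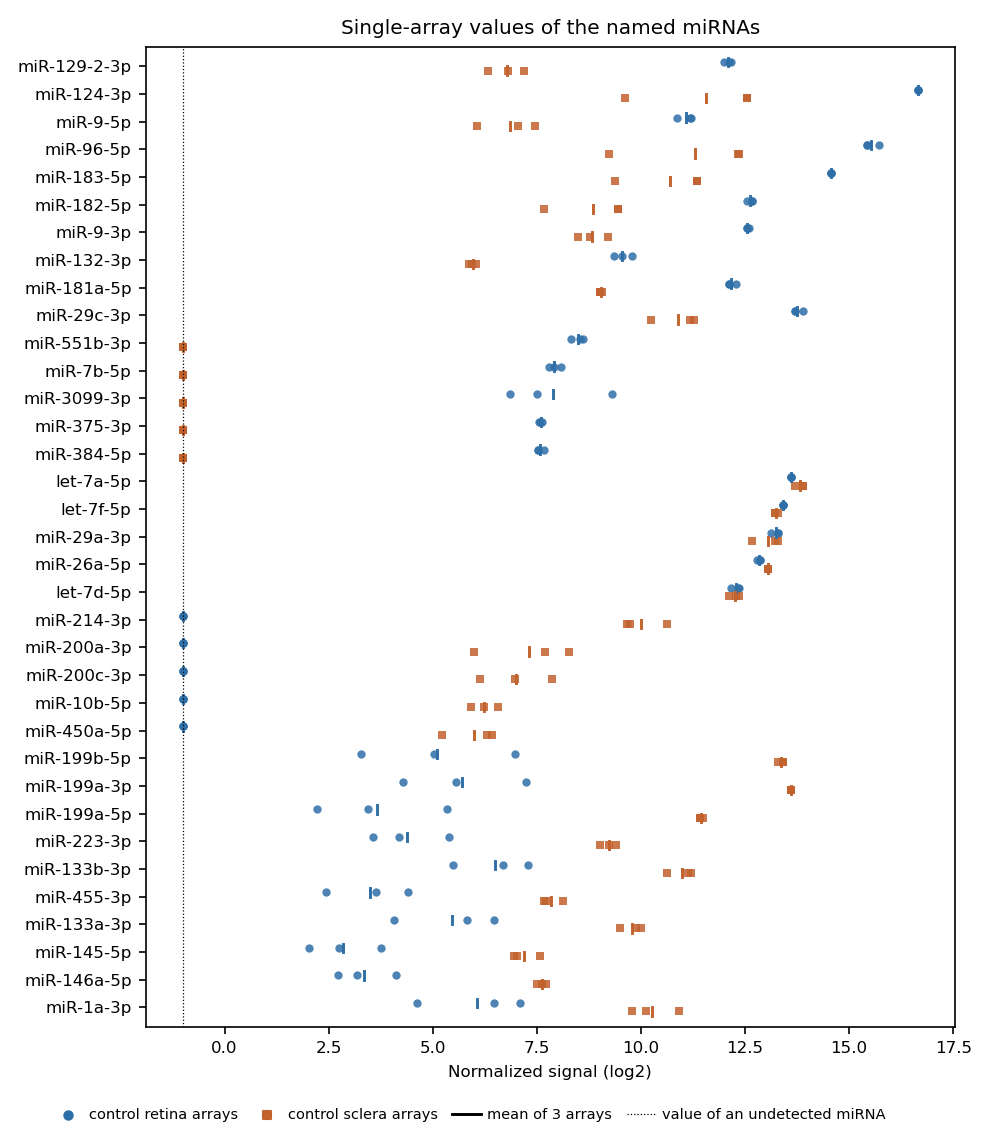
Normalized log2 signal of the named miRNAs on each of the 3 control retina arrays (blue circles) and 3 control sclera arrays (orange squares), with the mean of 3 arrays as a bar; the dotted line at -1 is the value of an undetected miRNA. From top to bottom are the widest differences toward the retina, the 5 with the highest signal among those detected in the retina alone, 5 with an interval within 1 log2 of 0, the 5 with the highest signal among those detected in the sclera alone and the widest differences toward the sclera.

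The fibroblast miRNAs gave the widest differences among all miRNAs detected on the 6 arrays. MiR-199a, miR-199b and miR-214 are miRNAs of fibroblasts and other mesenchymal cells. MiR-199b-5p was 13.42, 13.42 and 13.29 in the sclera and 3.28, 5.02 and 6.98 in the retina, which is 311-fold (-8.28 ± 0.71, adjusted p = 5.6e-06). MiR-199a-3p and miR-199a-5p differed by -7.90 ± 0.58 and -7.78 ± 0.63. The sclera values of these miRNAs lay close together and the retina values were spread, with retina array 1 the lowest and array 3 the highest each time. MiR-214-3p, whose precursor lies in the same cluster on chromosome 1 (164147979 to 164153590), was detected on every sclera array, with 9.65, 9.73 and 10.62, and on no retina array, and was at least 254-fold higher in the sclera.

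Of the 7 detected members of the mesenchymal list, 4 were called toward the sclera, 1 toward the retina and 2 not at all, against 23.0% and 27.5% of all miRNAs tested. The retina call was miR-21-3p, which was dim, detected on 2 retina arrays alone, and lost without any other control array than retina array 3 (adjusted p = 0.080 to 0.11) and with the 75th percentile scaling (adjusted p = 0.054). MiR-21-5p, which is linked to fibrosis, was 10.81, 10.86 and 11.02 in the retina and 11.56, 11.62 and 10.91 in the sclera, with overlapping values (-0.46 ± 0.20, adjusted p = 0.064). MiR-214-5p, the other arm of the miR-214 precursor, was detected on 2 retina arrays and all 3 sclera arrays and was not called (-1.22 ± 1.48). The smooth muscle miRNAs, miR-143-3p (-3.13 ± 0.36) and miR-145-5p (-4.34 ± 0.37), were both higher in the sclera. The summed signal of the 9 fibroblast and vessel wall miRNAs was 14.83 to 14.92 in the sclera and 10.95 to 11.29 in the retina. The 9 include miR-21-5p, which made up most of the retina sum (10.81, 10.86 and 11.02 alone). MiR-455-3p (-4.35 ± 0.45) and both arms of miR-140 (-2.41 ± 0.20 and -2.07 ± 0.13), which are known from cartilage and connective tissue, were higher in the sclera as well.

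MiRNAs of other cell types were higher in the sclera too. Of the 6 detected skeletal muscle miRNAs 5 were higher in the sclera, against 23.0% of all miRNAs tested: miR-133b-3p was 10.62, 11.21 and 11.13 in the sclera and 5.50, 6.70 and 7.28 in the retina (-4.50 ± 0.43, adjusted p = 1.1e-05). MiR-133a-3p (-4.34 ± 0.51), miR-1a-3p (-4.21 ± 0.59) and miR-206-3p (-2.47 ± 0.39) showed the same order without overlap, although miR-206-3p was not called without normalization between arrays (-1.28), and miR-133a-5p was detected on the sclera arrays alone (at least 16.6-fold). The exception was miR-499-5p, encoded in a myosin gene, which was detected on every retina array, with 5.15, 6.03 and 6.08, and on no sclera array (at least 3.66-fold). The summed signal of the 6 muscle miRNAs was 11.82 to 12.43 in the sclera and 7.52 to 8.87 in the retina.

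Of the 7 leukocyte miRNAs detected, 4 were higher in the sclera and 3 did not pass, where 23.0% of all miRNAs tested were called toward the sclera. With the 75th percentile scaling there were 3 sclera calls, without miR-155-5p (adjusted p = 0.053), and 1 retina call, miR-146b-5p (adjusted p = 0.033). MiR-223-3p, a miRNA of myeloid cells, was 9.01, 9.24 and 9.41 in the sclera and 3.56, 4.20 and 5.38 in the retina, which is 28.7-fold (-4.84 ± 0.43, adjusted p = 7.1e-06). MiR-146a-5p, which is induced in inflammation (-4.28 ± 0.36), and miR-142-3p, found in all blood cells (-3.40 ± 0.52), were also higher. The fourth, miR-155-5p, was detected on 1 retina array and lost the call without retina array 1, retina array 3 or sclera array 3 (adjusted p = 0.064 to 0.079). MiR-150-5p, a lymphocyte miRNA, was 5.07, 5.65 and 5.64 in the retina and 5.30, 5.77 and 6.12 in the sclera, with overlap (-0.28 ± 0.23). The erythrocyte miRNA miR-451 (-2.04 ± 0.17) and both arms of the endothelial miR-126 (-1.85 ± 0.13 for miR-126-3p and -2.14 ± 0.39 for miR-126-5p) were higher in the sclera, but none of these was called without normalization between arrays. The other erythrocyte miRNA detected, miR-144-3p, pointed toward the retina and was not called (1.34 ± 2.09). It was detected on 2 retina arrays and 1 sclera array. Over the 9 blood miRNAs the summed signal was 10.90 to 10.98 in the sclera and 8.09 to 8.95 in the retina. The part of muscle and blood cells in the differences was not tested.

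The epithelial miR-200 family was mostly undetected in the retina. Of its 7 detected members 5 were called toward the sclera and 2 did not pass, against 23.0% of all miRNAs tested. MiR-200a-3p was 8.26, 7.70 and 6.00 on the sclera arrays and miR-200c-3p 7.85, 6.98 and 6.14, and neither was detected on a retina array (at least 45.1-fold and at least 37.4-fold). Sclera array 1 was the highest and array 3 the lowest in both. MiR-200b-3p and miR-429-3p were each detected on 1 retina array, at 3.14, and on all sclera arrays (-7.80 ± 1.05 and -7.27 ± 1.14). The sizes of both differences rest in part on the value of -1 on the other retina arrays. MiR-141-3p was not detected on sclera array 3, and its call was lost without any of the 5 other control arrays (adjusted p = 0.062 to 0.10). The 2 members not called, miR-141-5p and miR-200a-5p, were detected on retina array 1 alone.

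MiR-205-5p, a miRNA of stratified epithelia, was 10.08, 8.92 and 8.46 in the sclera and was detected on 1 retina array, at 3.89 (-8.53 ± 1.22, adjusted p = 0.00018). The size of this difference rests in part on the value of -1 on the other retina arrays. MiR-203-3p, a miRNA of the epidermis, was also higher in the sclera (-3.10 ± 0.69). MiR-184-3p, abundant in cornea and lens, was not called: its values were 5.87, 10.24 and 11.80 in the retina and 12.78, 10.86 and 10.95 in the sclera. The retina values spanned the wider range, and retina array 3 exceeded 2 of the sclera arrays. The summed signal of the 10 epithelial miRNAs was 6.70, 10.26 and 11.82 on retina arrays 1, 2 and 3 and 11.45 to 13.28 on the sclera arrays. On retina arrays 2 and 3 nearly all of this sum was miR-184-3p (10.24 and 11.80 alone). The part of the epithelial signal in the differences was not tested. MiR-10b-5p, encoded among the Hox genes, was detected on the sclera arrays alone, with 6.24, 6.56 and 5.91 (at least 22.1-fold), and it was the only 1 of the 8 names of the Hox list that was detected.

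Of the pigment cell miRNAs 1 of 2 was called, toward the retina, against 27.5% of all miRNAs tested. MiR-204-5p, abundant in the pigment epithelium, was 13.22, 13.22 and 13.29 in the retina and 12.36, 12.60 and 13.42 in the sclera, with overlap (0.45 ± 0.28, adjusted p = 0.19). Its relative miR-211-5p, which shares 21 of 22 positions, was 12.36, 12.36 and 12.32 in the retina and 11.02, 11.07 and 11.48 in the sclera and was called higher in the retina (1.16 ± 0.16). Without normalization between arrays both were called toward the retina. Of the oligodendrocyte miRNAs, miR-219-5p was higher in the retina (1.64 ± 0.21), and miR-338-3p (0.80 ± 0.15) and miR-338-5p (0.87 ± 0.45) were not called.

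**Figure D3:**
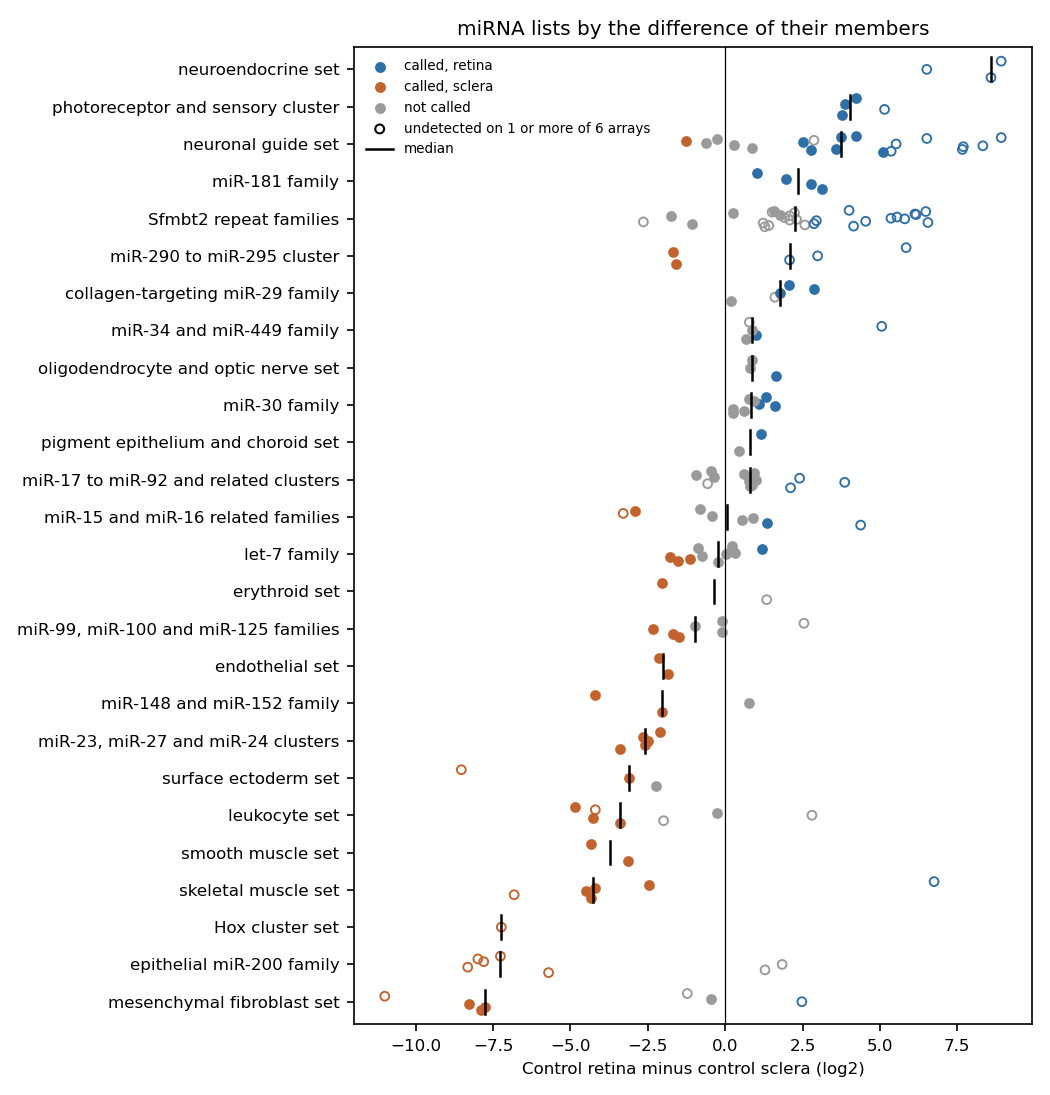
Control retina minus control sclera (log2) of the members of 26 miRNA lists, ordered by the list median (black bar). Blue and orange points were called higher in the retina or the sclera, grey points were not called, and open points were undetected on 1 or more of the 6 control arrays, so that their size is set by the value of -1 for an undetected miRNA. The fibroblast, epithelial, Hox and muscle lists lie at the sclera end and the neuronal, sensory and neuroendocrine lists at the retina end.

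The miR-29 family, which targets collagen messages, split between its members. MiR-29c-3p was 13.69, 13.69 and 13.90 in the retina and 11.17, 11.26 and 10.24 in the sclera, a 7.29-fold difference (2.87 ± 0.24, adjusted p = 5.1e-06). MiR-29b-3p was higher in the retina by 1.78 ± 0.30. MiR-29a-3p, which shares 21 of 22 positions with miR-29c-3p, was 13.29, 13.29 and 13.12 in the retina and 13.29, 13.22 and 12.67 in the sclera, with overlap (0.17 ± 0.16), and its 95% interval lay within 1 log2 of 0. MiR-29b-1-5p, an opposite arm with another seed, was called the other way, with 3.85, 3.89 and 4.72 in the sclera and 2.31, 2.78 and 3.13 in the retina (-1.41 ± 0.29, adjusted p = 0.0021). That call was lost with the 75th percentile scaling (-0.26), and its direction turned without normalization (0.77). The annotation places miR-29b-3p and miR-29c-3p in a cluster on chromosome 1 (196863287 to 196863815) and miR-29a-3p on chromosome 6 (31012675 to 31013049).

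Other families with a common seed separated in the same manner. In the miR-130 family, miR-130b-3p (2.85 ± 0.14) and miR-301a-3p (1.67 ± 0.16) were higher in the retina, whereas miR-130a-3p, which shares 20 of 22 positions with miR-130b-3p, had the higher values in the sclera (-0.83 ± 0.12), although under a fold change of 2 and with the direction turned without normalization (0.32). In the miR-148 family, miR-152-3p was 10.53, 10.28 and 10.28 in the sclera and 5.40, 6.32 and 6.80 in the retina (-4.19 ± 0.30), miR-148a-3p differed by -2.05 ± 0.19, and miR-148b-3p had the higher values in the retina (0.77 ± 0.19) without reaching a fold change of 2. MiR-146a-5p was called higher in the sclera, whereas its relative miR-146b-5p was detected on all retina arrays and 2 sclera arrays and was not called (2.80 ± 1.33).

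Groups with a common seed were counted only among the 315 miRNAs with a RefSeq sequence. MiRNAs without one, among them miR-199b-5p, miR-133a-3p, miR-1a-3p and miR-23b-3p, were left out, so these counts are incomplete. Of the 30 groups of at least 2 such members, 7 had every member called in the same direction, 3 toward the retina and 4 toward the sclera. Calls in both directions occurred in 2 groups. In the let-7 family, which is expressed in most differentiated cells, let-7g-5p was higher in the retina (1.19 ± 0.13), and let-7c-5p (-1.78 ± 0.21) and let-7b-5p (-1.13 ± 0.10) were higher in the sclera. Both sclera calls of the let-7 family turned direction without normalization between arrays (0.19 and 0.019), and let-7c-5p lost its call with the 75th percentile scaling (-0.85). In the group of miR-15 and miR-16, miR-15a-5p was higher in the retina (1.34 ± 0.18) and miR-322-5p higher in the sclera (-2.92 ± 0.28). Across the 21 groups with at least 2 members detected on all 6 arrays, the median range between members was 1.38 log2.

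**Figure D4:**
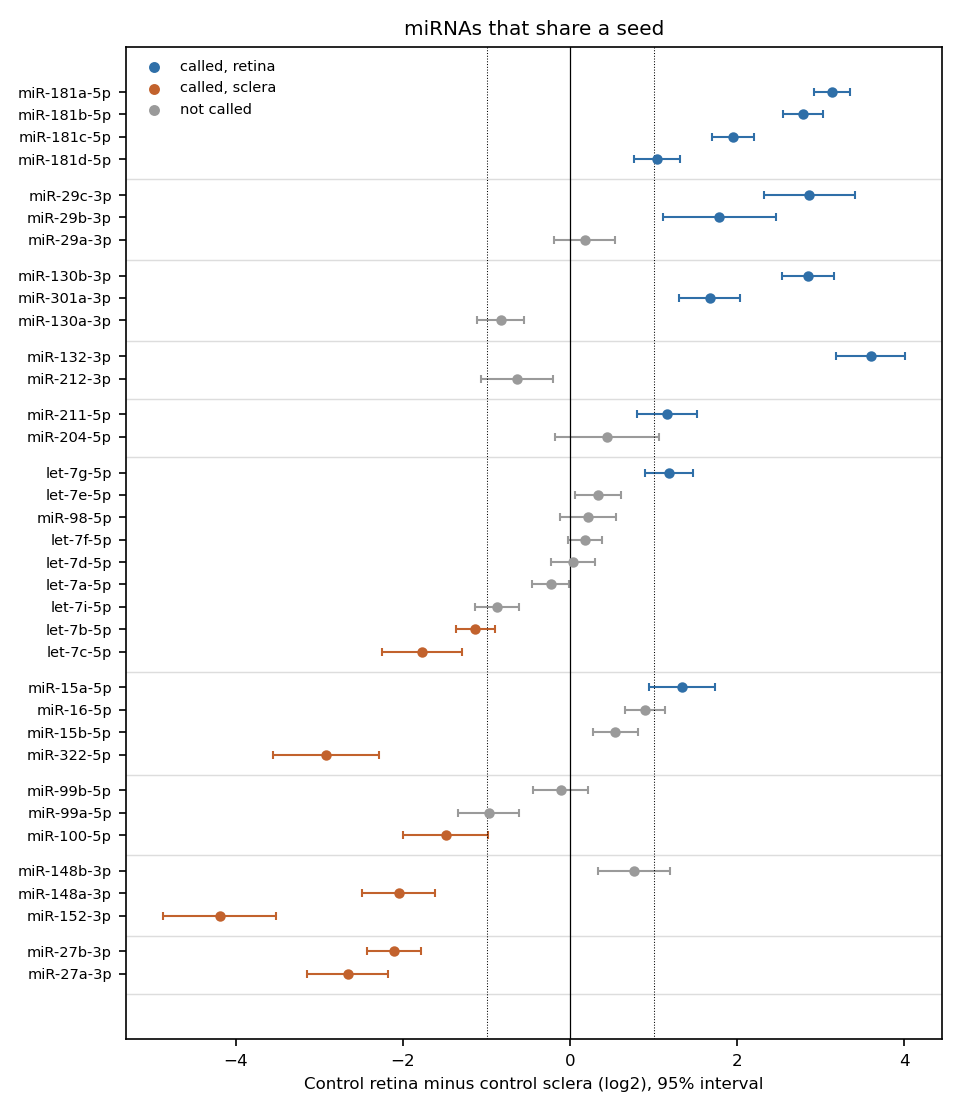
Control retina minus control sclera (log2, x axis) with 95% intervals for miRNAs that share a seed, in blocks by family and limited to miRNAs detected on all 6 control arrays. Blue and orange points were called higher in the retina or the sclera, grey points were not called, and the dotted lines mark a fold change of 2. The miR-181 block lies wholly on the retina side, and the miR-29, miR-130, miR-132, miR-15 and miR-148 blocks spread across both sides or to 0.

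The broadly expressed families differed in how many members passed. Of 8 miR-30 members, not counting the opposite arms of miR-30c, 3 were called, all toward the retina, against 27.5% of all miRNAs tested. Of these opposite arms miR-30c-1-3p, undetected in the sclera, was also called toward the retina and miR-30c-2-3p (0.38 ± 0.23) was not called. The count was 5 with the 75th percentile scaling and 8 without normalization. MiR-30b-5p was 11.56, 11.48 and 11.34 in the retina and 9.91, 9.91 and 9.76 in the sclera (1.60 ± 0.10), and miR-30e-5p (1.33 ± 0.17) and miR-30c-5p (1.08 ± 0.16) followed. MiR-30c-5p fell under a fold change of 2 without sclera array 2 (0.91). Of the 7 members of the miR-99, miR-100 and miR-125 families, which are partly encoded beside let-7 members, 3 were called, all toward the sclera. MiR-125b-5p was 15.43, 14.55 and 15.43 in the sclera and 12.78, 12.78 and 12.86 in the retina (-2.33 ± 0.21), without overlap, and miR-100-5p differed by -1.49 ± 0.23. Over all miRNAs tested 23.0% were called toward the sclera. With the 75th percentile scaling these families had 3 sclera calls and 1 retina call, and without normalization 0 sclera calls and 3 retina calls. Of the 13 detected miRNAs of the miR-17 to miR-92 and related clusters, which are known from proliferating cells, 3 were called toward the retina, a share below the 27.5% of all miRNAs tested. Each of the 3 was detected on 2 retina arrays and on no sclera array. The count was 7 with the 75th percentile scaling and 9 without normalization. Of the 3, miR-106b-3p was not called with the pools as a block (adjusted p = 0.0501) or under either of these scalings, and miR-18b-5p was lost without any control array other than retina array 3 (adjusted p = 0.065 to 0.099).

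Where a cluster of nearby precursors held at least 2 calls, these mostly ran in the same direction. With a gap of at most 10 kb in the array annotation, 46 clusters held detected miRNAs of at least 2 precursor names, and 24 of these had at least 2 calls. The calls were all toward the retina in 10 of the 24, all toward the sclera in 11 and in both directions in 3. Single calls toward the retina and the sclera made up 27.5% and 23.0% of all miRNAs tested. Clusters with fewer than 2 calls are not in these counts, and members of some had opposite signs. Examples are miR-132-3p (3.60) with miR-212-3p (-0.63) and miR-451 (-2.04) with miR-144-3p (1.34). The count by name includes miR-30c-5p with miR-30c-2-3p and miR-129-5p with miR-129-2-3p, each pair being both arms of a single precursor. The miR-129 pair is among the 10 clusters with retina calls. The 10 also include the Sfmbt2 clusters on chromosome 2, described below. None of their called miRNAs was detected on a sclera array, so that the direction follows from the detection. The miR-23a, miR-27a and miR-24 cluster on chromosome 8, known from vessels and muscle, was higher in the sclera, by -3.40 ± 0.16 for miR-23a-3p, -2.66 ± 0.21 for miR-27a-3p and -2.50 ± 0.13 for miR-24-3p. In the cluster on chromosome X between 50401188 and 50407512, 7 of 8 detected miRNAs were called higher in the sclera. Over all miRNAs tested 23.0% were called toward the sclera. Among the 7, miR-450a-5p and miR-503-5p were detected on the sclera arrays alone (at least 15.6-fold and at least 15.7-fold). MiR-322-5p and miR-542-5p differed by -2.92 ± 0.28 and -3.83 ± 0.47. The other 3 calls of this cluster, miR-322-3p, miR-542-3p and miR-450b-3p, were not detected on sclera array 3 and were lost without any of the 5 other control arrays (adjusted p = 0.054 to 0.091).

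The imprinted region on chromosome 12, between 110801930 and 110986159, held 54 detected miRNAs in 3 such clusters, of which 15 were called toward the retina and 9 toward the sclera. Over all miRNAs tested these shares were 27.5% and 23.0%, so that the retina count lay close to the overall share and the sclera count below it. It encodes miRNAs known from brain and from embryonic tissues. On the sclera side, miR-299b-5p was 8.32, 8.53 and 8.73 in the sclera and 3.92, 4.86 and 5.17 in the retina (-3.88 ± 0.30), and miR-411-5p (-2.22 ± 0.20) and miR-379-5p (-2.01 ± 0.18) had the same order without overlap. On the retina side, miR-495-3p was 7.83, 8.12 and 7.75 in the retina and 6.37, 6.43 and 5.85 in the sclera (1.68 ± 0.19), miR-487b-3p differed by 1.51 ± 0.20, and miR-323-3p was detected on the retina arrays alone (at least 4.15-fold). The clusters of the Sfmbt2 gene on chromosome 2, encode repeated miRNA families. Of the 28 detected members of these families 12 were called toward the retina, against 27.5% of all miRNAs tested. None of the 12 was detected on a sclera array, so that the direction of their calls follows from the detection.

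Where both arms of a precursor were detected on all 6 control arrays, their differences were mostly similar. Of 27 precursors with both arms detected on all 6 control arrays, 23 had arms with the same sign. Across these 27 pairs, which share the precursor and the arrays, Pearson's r of the differences was 0.942, and the median gap between the arms was 0.46. Both arms were called in 8 pairs, always in the same direction. Most miRNAs were read with more than 1 probe. Of the 121 called miRNAs selected for description 85 had at least 2 usable probes, and in 84 of these every probe gave the same sign. The called signal is the sum over these same probes, so that this count adds no separate evidence for the calls.

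After quantile normalization, some miRNAs of high signal differed little between the tissues. For 52 of the 249 miRNAs detected on all 6 arrays the 95% interval of the difference lay within 1 log2 of 0. Among those with the highest signal were let-7a-5p (-0.23 ± 0.10), let-7f-5p (0.18 ± 0.09), miR-29a-3p, miR-26a-5p (-0.21 ± 0.09) and let-7d-5p (0.03 ± 0.12). The values of let-7d-5p were 12.15, 12.32 and 12.36 in the retina and 12.11, 12.27 and 12.36 in the sclera. This depended on the normalization. Without it let-7f-5p (1.45), let-7d-5p (1.15), miR-29a-3p (1.37) and miR-26a-5p (1.15) were called higher in the retina, and let-7a-5p was at 0.98, where the median of the 249 miRNAs was 1.18.

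The same contrast was measured a second time on the 6 arrays of the myopic eyes of the same mice. Of the 224 miRNAs called in the control eyes, 206 were also called in the myopic eyes, all in the same direction, where 58.9% of the miRNAs tested were called, and all 224 had the same sign. Across the 249 miRNAs detected on all 6 control arrays, which come from separate eyes and share the slides, Pearson's r between both sets of differences was 0.951. The detection patterns recurred as well: 46 of the 48 miRNAs detected on every control retina array and on no control sclera array had this pattern in the myopic eyes, and 9 of the 10 with the opposite pattern. MiR-132-3p was higher in the retina by 3.97 in the myopic eyes, and miR-212-3p differed by -0.94 there. MiR-199b-5p differed by -9.74 and miR-124-3p by 4.79. The difference between the control and the myopic contrast was tested in the same fit, and 1 miRNA was called (0.226% of those tested), miR-145-5p, with 36 at an unadjusted p under 0.05. MiR-145-5p differed by -4.34 in the control eyes and by -7.90 in the myopic eyes, where it was not detected on any retina array, and the call was lost with the pools as a block (0 calls).

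**Figure D5:**
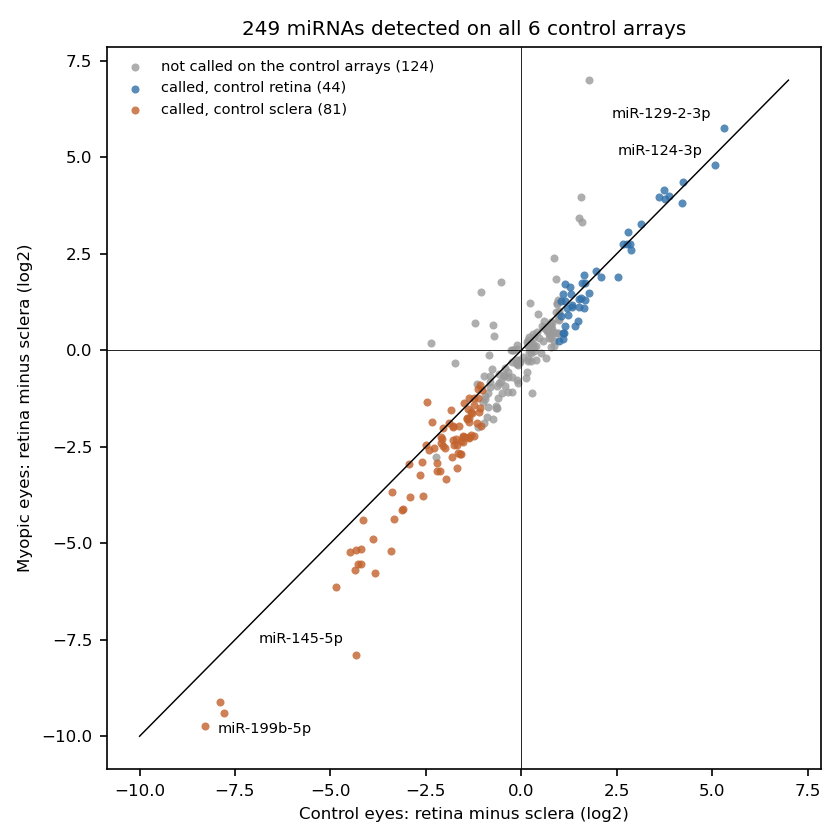
Retina minus sclera (log2) in the control eyes (x axis) and in the myopic eyes (y axis) for 249 miRNAs detected on all 6 control arrays. The line marks equal differences, and blue and orange points were called higher in the control retina or the control sclera. The points follow the line with r = 0.951, and miR-145-5p, undetected on the myopic retina arrays, lies farther below it than the other sclera calls.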

How the data were processed

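RNA of 12 pools of 3 eyes each was hybridized, 1 sample per array and 1 colour, to Agilent mouse miRNA microarrays. Per the file headers, the deposited scanner files were made with Agilent Feature Extraction 11.0.1.1 and hold, for each spot, the total gene signal (background-subtracted intensity summed over the spots of a miRNA, linear scale) and a detection flag (a score of 0 or 1 per miRNA). The authors also deposited log2 values processed with Partek 6.6, quantile normalized after a floor. These matched the values computed here (Pearson's r = 0.999 across entries, which are not independent replicates, and a median absolute difference of 0.12) and served as an alternative.

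Control spots were left out. Total gene signals under 0.5 were set to 0.5, quantile normalized over the 12 arrays and 696 mouse miRNA names, and taken to log2. An undetected miRNA therefore stands at -1. Low signals and ties depend on this step. The 443 miRNAs detected on at least 1 array were fitted in limma 3.58.1 (R 4.3.3) with 4 groups of 3 arrays (8 residual degrees of freedom, two-sided moderated tests, Benjamini-Hochberg adjustment). Summaries and figures were made in Python 3.11.15 with pandas 2.3.3, numpy 2.4.6 and matplotlib 3.10.9. The scripts were tested on simulated data. The number of arrays limits the precision, and p-values measure the spread between pools. The labels speak of single mice and the protocol of pools of 3 eyes.

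For a miRNA detected on all arrays of a tissue and none of the other, the bound compares its mean with the lowest detected signal of each other array (or its own value where higher).

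The retina and sclera pools of a number carry the same mouse identifier, so the numbers pair the samples by the labels. The correlations of their deviations from the group means over 249 miRNAs were -0.17, 0.09 and -0.07 for pools 1, 2 and 3. The fit had no block, and the pool number, which is also the slide, was added as a block in an alternative. Alternatives changed the scaling, floor, background correction, filter, fit and arrays included.

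The miRNAs described were the 10 widest called differences in each direction among those detected on all 6 control arrays and of 1 direction in all 3 pairs, the 5 with the highest signal detected in 1 tissue alone, the 10 with the highest mean in each tissue, 5 with an interval within 1 log2 of 0, the members of the lists (of lists over 8 members, the widest difference in each direction), any miRNA whose difference changed between control and myopic eyes, and the other arms and cluster neighbours of these. Members of larger lists, miR-210-3p and miR-130 family members beyond this rule were chosen after their values were seen. The members and lists were chosen with earlier results of these data known. Sequences are RefSeq mature miRNAs, and precursor positions and clusters (gaps of at most 10 kb) are those of the array annotation.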

Additional observations from a re-analysis of the deposited data

Results flagged for a closer look

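The retina minus sclera difference of miR-145-5p, a smooth muscle miRNA, differed between the control and the myopic eyes in a test of the difference itself (3.56 ± 0.52, SE, adjusted p = 0.030 in limma). The control values were 2.04, 2.75 and 3.75 in the retina and 7.03, 6.94 and 7.58 in the sclera, a difference of -4.34. In the myopic eyes the difference was -7.90, and miR-145-5p was not detected on any of the 3 myopic retina arrays, so that the size rests on the value of -1 given to an undetected miRNA. Once the pool number entered the fit as a replicate block, the difference between the contrasts was called for 0 miRNAs. No group of 3 arrays was tested for a single array that stands apart, since 3 values are too few.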

How the results depend on the processing

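The split of the 224 calls (122 higher in the retina and 102 in the sclera) depended on the scaling. Without normalization between arrays there were 224 retina calls and 44 sclera calls. With normexp background correction there were 66 calls (29 and 37). A fit of the 6 control arrays alone, without the spread of the myopic arrays, gave 180 calls (94 and 86). With these 6 arrays also normalized alone there were 191 (102 and 89). Each of these fits ended 22 of the 121 calls described. Tested over the miRNAs detected on all 6 control arrays alone there were 129, with 45 toward the retina; fewer miRNAs were tested there. The pool number, entered as a replicate block, gave 224 calls, 219 of them shared, and it ended the calls of miR-124-5p and miR-290-5p (adjusted p = 0.051 and 0.054) and that of a difference between control and myopic eyes (0 calls). Among the 121 called miRNAs selected by the rule it ended no other call; outside them miR-106b-3p (adjusted p = 0.0501), miR-32-5p and miR-467a-5p were lost. Without 1 array the calls numbered 191 to 220 (96 to 119 toward the retina and 94 to 101 toward the sclera), and the miRNAs detected on all 3 sclera arrays and no retina array numbered 10 to 17, with 17 without sclera array 3. Of 121 called miRNAs described, 103 to 111 kept their call without 1 array and 0 reversed. With normexp 51 kept it, 69 lost it and 1 reversed, and without normalization 95 kept it, 21 lost it and 5 reversed. Directions reversed without normalization for let-7b-3p (0.029), let-7b-5p (0.019), let-7c-5p (0.19), miR-29b-1-5p (0.77) and miR-720 (0.29), for miR-290-5p with processed spot signals (-0.54), with normexp (-0.00089) and with undetected miRNAs at the lowest detected signal and 75th percentile scaling (-0.71), and for miR-666-3p under the last (-0.31). That last setting was chosen after seeing the data. The cause was not tested. Signals near the lowest detected one (1.33 to 2.21 in the retina and 3.40 to 4.63 in the sclera, log2) limit what could be called undetected, more so on sclera array 3.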

Other observations

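Several miRNAs detected on the retina arrays alone were spread widely over these arrays, each with array 1 the highest and array 3 the lowest. MiR-190b-5p was 8.87, 6.61 and 5.25 on retina arrays 1, 2 and 3. Among the Sfmbt2 repeat families, miR-466h-5p was 7.34, 5.59 and 3.73, miR-669e-5p was 6.98, 5.21 and 3.22, miR-669b-5p was 6.91, 5.11 and 3.49, and miR-467c-5p was 6.37, 4.79 and 3.25. Other miRNAs had the opposite order on the retina arrays, among them miR-199b-5p (3.28, 5.02 and 6.98) and miR-184-3p (5.87, 10.24 and 11.80). MiR-206-3p, called toward the sclera, was 5.95, 4.84 and 4.28.

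The cluster of miR-290 to miR-295, known from embryonic stem cells, had 5 detected members, and all 5 were called, 3 toward the retina and 2 toward the sclera. Over all miRNAs tested 27.5% were called toward the retina and 23.0% toward the sclera. With the 75th percentile scaling the cluster had 2 retina calls and 1 sclera call. The retina calls were dim, and miR-290-5p was detected on 2 retina arrays alone (2.04 and 2.21 on arrays 2 and 3). Its call was lost without any control array other than retina array 1 (adjusted p = 0.072 to 0.11) and with the pools as a block (adjusted p = 0.054). The call of miR-291a-3p was lost without any control array other than retina array 3 (adjusted p = 0.073 to 0.10), and that of miR-291b-5p without retina array 1 or 2 or sclera array 2 or 3 (adjusted p = 0.051 to 0.12).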
